A study of Mus musculus with 4 samples.

Results

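The beta-defensin genes of the mouse were followed on 4 arrays of epididymal fat, the pad that lies against the epididymis and testis. Members were all genes of the platform annotation whose symbol begins with Defb followed by a number. There were 39 among 19505 measured genes, each read by 1 probe set. A further 4 Defb entries of the RefSeq gene table, Defb12, Defb37, Defb42 and the pseudogene Defb44-ps, were not analysed here.

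RNA came from male mice, and no strain or age is stated. Mice received DMSO as the vehicle or GW4869, an inhibitor of vesicle release, and had sham surgery or synergist ablation, which loads a muscle by removing its helpers. The 4 groups are vehicle with sham surgery (Veh-Sham), vehicle with overload (Veh-SA), GW4869 with sham surgery (GW-Sham) and GW4869 with overload (GW-SA). Each has 1 Clariom S array, and whether that array holds 1 mouse or a pool is not given. Since no group has a second array, no difference could be tested, and every value below describes these 4 arrays only. The series title asks whether vesicles from overloaded muscle drive the breakdown of fat.

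Beta-defensins are small, positively charged secreted peptides held in shape by disulfide bonds between conserved cysteines. They damage microbial membranes, and some also attract immune cells through the chemokine receptor Ccr6. In rodents most members are made by the epithelium of the epididymis, where the peptides coat maturing sperm and where different members mark different segments of the duct. Fat is not among their classic sources.

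Values are log2 readings as deposited. A reading was called above background when it exceeded log2 6.40, the highest 95th percentile that the 23 antigenomic background rows reached on any array. A stricter level, log2 9.27, came from the 5222 negative control rows in the same way. Readings of different probe sets are not comparable in level, so each gene was compared only with itself across arrays. Before a difference was taken, readings below 6.40 were raised to it, so differences that involve such readings are lower bounds.

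The arrays themselves stood apart in transcripts of the reproductive tract. All 9 measured adipocyte markers were above background on every array, with list medians of 16.63 to 17.14, so fat RNA was present on all 4. Germ cell markers were above background for 10 of 10 genes on Veh-Sham (median 15.38), 0 of 10 on Veh-SA and GW-Sham (3.92 and 3.45) and 3 of 10 on GW-SA (4.69). Epididymal epithelium markers were above background for 15 of 15 genes on GW-SA (median 13.15), 4 on Veh-Sham (3.79) and 1 each on Veh-SA and GW-Sham (3.22 and 3.81). The 4 on Veh-Sham were Adam7 (14.64), Lcn5 (14.22), Rnase9 (13.43) and Spag11a (6.87), which read 16.01, 13.38, 6.65 and 7.08 on GW-SA. Markers of the distal epididymis and vas deferens were above background for 6 of 6 genes on both sham arrays (13.15 and 12.87), 0 on Veh-SA (3.19) and 1 on GW-SA (5.33). The lists were chosen with earlier results of these data known, so these counts are descriptions only. Whether the dissection or the identity of a sample differed was not tested. The part of such tissue in the values below was not tested either, and a larger share of tract cells and more RNA per cell cannot be told apart.

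**Figure D1:**
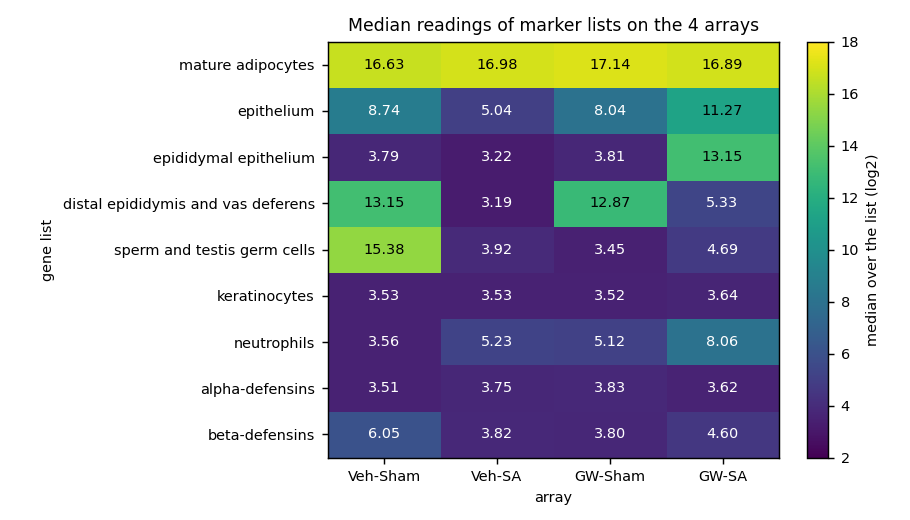
Median log2 reading of each marker list (rows) on each array (columns), with colour from low (dark) to high (yellow) and the value printed in each cell. By median, adipocyte markers lie at 16.63 or more on all arrays and germ cell markers at 15.38 on Veh-Sham alone. Epididymal epithelium markers lie at 13.15 on GW-SA alone, but Adam7 and Lcn5 of that list were high on Veh-Sham too. Rnase9 of the same list read 13.43 on Veh-Sham and 6.65 on GW-SA.

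The sequences upstream of 3 members introduce the family, because their genes show 3 of the patterns described next: Defb38 was read on Veh-Sham alone, Defb20 on GW-SA alone and Defb43 on both sham arrays. They are examples, picked for high readings after the values were seen, and no level of one gene is set against another. Each run holds the 250 bases before the gene's start in RefSeq's GRCm38.p6, read 5′ to 3′ on the gene's strand. Capitals mark the CCAAT box, a motif of general promoter factors. They also mark the half-site of the androgen receptor, the hormone receptor on which the epididymis depends, searched as AGAACA. Both were searched on either strand. Defb38 lies on the minus strand at chr8:19026569-19026818, Defb20 on the plus strand at chr2:152476813-152477062 and Defb43 on the plus strand at chr14:63011521-63011770.
Defb38: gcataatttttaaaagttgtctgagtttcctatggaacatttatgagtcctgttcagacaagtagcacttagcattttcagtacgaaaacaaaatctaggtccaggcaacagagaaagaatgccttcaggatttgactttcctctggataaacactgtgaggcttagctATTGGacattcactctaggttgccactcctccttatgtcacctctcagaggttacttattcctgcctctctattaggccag
Defb20: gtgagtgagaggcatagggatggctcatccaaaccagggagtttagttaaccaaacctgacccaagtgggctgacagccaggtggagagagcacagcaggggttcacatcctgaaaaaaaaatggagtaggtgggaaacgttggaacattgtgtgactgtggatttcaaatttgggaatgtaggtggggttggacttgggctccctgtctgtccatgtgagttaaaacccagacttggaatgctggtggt
Defb43: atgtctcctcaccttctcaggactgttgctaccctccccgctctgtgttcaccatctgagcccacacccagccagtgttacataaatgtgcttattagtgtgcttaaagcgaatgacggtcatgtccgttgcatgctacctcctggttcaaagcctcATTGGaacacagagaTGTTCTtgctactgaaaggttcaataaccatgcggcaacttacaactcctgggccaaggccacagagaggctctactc

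The Defb43 run holds a half-site that begins 78 bases before the start and a CCAAT box that begins 93 bases before it, both on the opposite strand. The Defb38 run holds a CCAAT box 81 bases before the start, also on the opposite strand. Neither motif is in the Defb20 run. A match is a description of letters and not a binding site.

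The family fell into a set read on Veh-Sham, a set read on GW-SA, and a set at background throughout. Of the 39 members, 26 were above background on at least 1 array, against 53.5% of all genes. The number above background was 18 on Veh-Sham (46.2% of members), where 47.5% of all genes were, and 13 on GW-SA (33.3%), against 45.7%. On the other arrays it was 2 on Veh-SA and 4 on GW-Sham, against 44.4% and 45.0%. Veh-Sham alone carried 12 members, while 4.89% of all genes were above background on that array only. GW-SA alone carried 6, against 1.5%. No member was above background on Veh-SA alone, GW-Sham alone or all 4 arrays, against 0.723%, 0.574% and 40% of all genes. At the stricter level 16 members (41.0%) were seen on at least 1 array, against 28.3% of all genes. They were 9 on Veh-Sham (23.1%), 7 on GW-SA (17.9%) and 0 on the other arrays. The shares of all genes were 22.8% (Veh-Sham), 23.0% (GW-SA), 22.7% (Veh-SA) and 22.8% (GW-Sham). The family median was log2 6.05 on Veh-Sham, 3.82 on Veh-SA, 3.80 on GW-Sham and 4.60 on GW-SA, beside medians over all genes of 6.09, 5.62, 5.73 and 5.84.

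**Figure D2:**
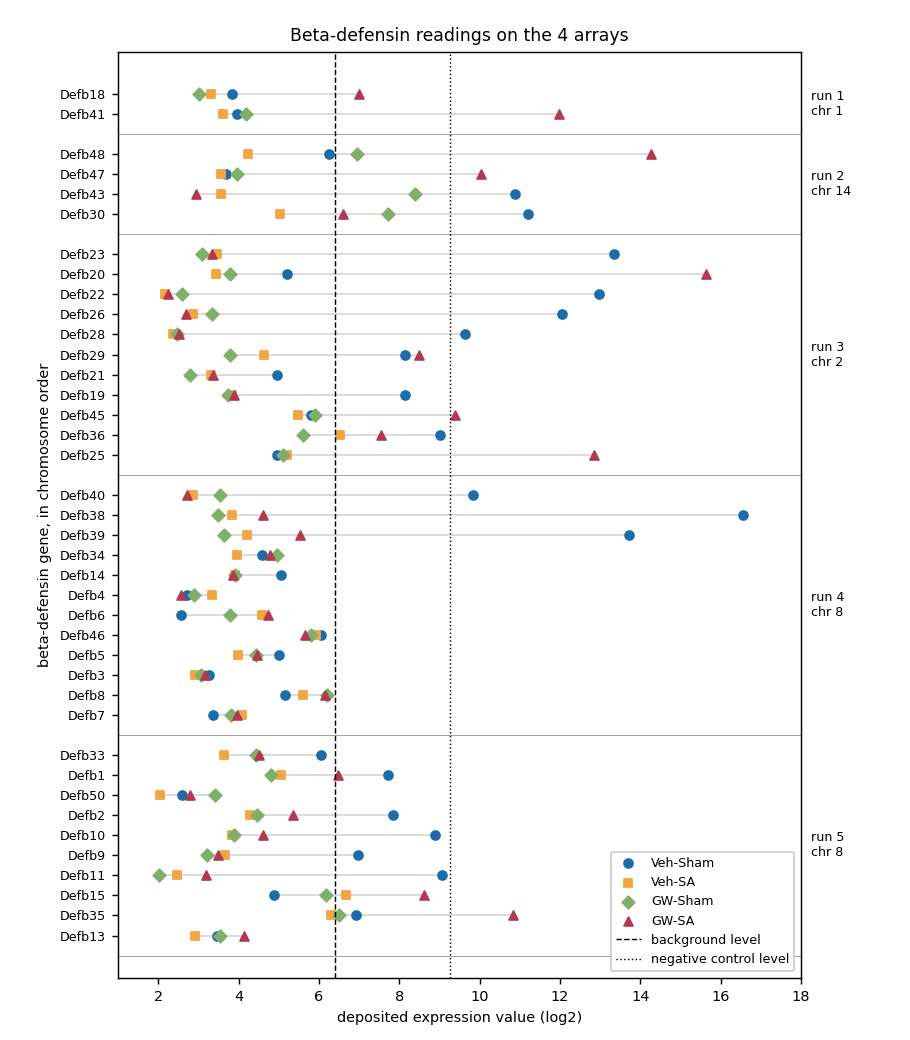
Deposited log2 readings (x axis) of the 39 members (rows, in RefSeq chromosome order within 5 runs of neighbouring genes) on the 4 arrays. The dashed and dotted lines are the background level of 6.40 and the negative control level of 9.27. Right of the dotted line stand readings of Veh-Sham and GW-SA only.

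Among the genes read on Veh-Sham alone, Defb38, Defb39 and Defb40 lie close together on chromosome 8 and are known as epididymal members. Defb38 read 16.55 on Veh-Sham, 3.82 on Veh-SA, 3.48 on GW-Sham and 4.60 on GW-SA. Defb39 read 13.71, 4.21, 3.64 and 5.52 on the arrays in the same order. Defb40 read 9.84, 2.86, 3.54 and 2.71. For these genes the Veh-Sham reading stood at least 10.15, 7.31 and 3.44 log2 units above the next array.

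Defb22, Defb23, Defb26 and Defb28 of chromosome 2 were likewise above background on Veh-Sham alone. Defb22, the counterpart of a primate defensin that forms much of the coat of sperm, read 12.98 on Veh-Sham, 2.17 on Veh-SA, 2.58 on GW-Sham and 2.24 on GW-SA. Defb23 read 13.35 on Veh-Sham and 3.46, 3.08 and 3.33 on Veh-SA, GW-Sham and GW-SA. Defb26 read 12.04 on Veh-Sham and 2.86, 3.34 and 2.69 on the other arrays. Both Defb23 and Defb26 are linked to sperm movement in mice. Defb28 read 9.63, 2.36, 2.46 and 2.50. Each of these genes was high on 1 array and at background on the other 3, with gaps of at least 6.58, 6.95, 5.65 and 3.23 log2 units.

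Lower Veh-Sham readings, between the background level and the negative control level, were found for Defb19 of chromosome 2 and for Defb2, Defb9, Defb10 and Defb11 of chromosome 8. Defb19, first described in Sertoli cells of the developing testis, read 8.13 on Veh-Sham, 3.82 on Veh-SA, 3.74 on GW-Sham and 3.89 on GW-SA. Of the 8 Sertoli cell markers 2 were above background on Veh-Sham, Clu at 16.76 and Inha at 8.33, with the others at 5.93 or less. Their number was 2 on Veh-SA, 2 on GW-Sham and 3 on GW-SA. Clu was above background on every array, with 14.68 on Veh-SA, 16.14 on GW-Sham and 19.40 on GW-SA, and Inha on Veh-Sham only. The part of Sertoli cells was not tested. Defb2, known from inflamed airway epithelium, read 7.84, 4.29, 4.46 and 5.35 in the same order of arrays. Defb10 read 8.89 on Veh-Sham and 3.83, 3.89 and 4.60 elsewhere. Defb11 read 9.06 on Veh-Sham and 2.45, 2.01 and 3.19 elsewhere. Defb9 read 6.97, 3.65, 3.22 and 3.48, a Veh-Sham excess of at least 0.58 that just missed 1.5-fold. All of these Veh-Sham readings lie within the range that negative control rows can reach.

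Defb20, Defb25, Defb41, Defb45, Defb47 and Defb18 were above background on GW-SA alone. Defb20, read on chromosome 2 between Defb23 and Defb22, had 5.21 on Veh-Sham, 3.43 on Veh-SA, 3.77 on GW-Sham and 15.63 on GW-SA. Defb25, at the far end of the same run, read 4.96, 5.21, 5.10 and 12.86. Their GW-SA readings stood at least 9.23 and 6.47 log2 units above every other array. Defb41 of chromosome 1, whose promoter is used to target the first part of the epididymis (the caput), read 3.95 on Veh-Sham, 3.61 on Veh-SA, 4.19 on GW-Sham and 11.98 on GW-SA. Its neighbour Defb18 read 3.83, 3.31, 3.0 and 7.0. GW-SA stood at least 5.58 above the other arrays for Defb41 and at least 0.60 for Defb18, both lower bounds. Defb45 read 5.79, 5.47, 5.90 and 9.38, and Defb47 of chromosome 14 read 3.68, 3.55, 3.96 and 10.03. GW-SA was the high array for both, by at least 2.98 and 3.63 log2 units.

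The remaining 8 members above background were read on more than 1 array. Defb48 and Defb35 were highest on GW-SA with weak readings elsewhere. Defb48 read 6.26 on Veh-Sham, 4.22 on Veh-SA, 6.95 on GW-Sham and 14.26 on GW-SA, so GW-SA stood 7.31 above GW-Sham. Defb35 read 6.91, 6.31, 6.49 and 10.82. Defb15 read 4.89, 6.66, 6.17 and 8.62, with GW-SA 1.95 above Veh-SA. Its 2 sham readings were both at background.

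Defb43 and Defb30, neighbours on chromosome 14, were above background on both sham arrays, as Defb35 was by a smaller margin. The GW-Sham readings of Defb43 and Defb30 lie below the negative control level of 9.27. Defb43 read 10.88 on Veh-Sham, 3.57 on Veh-SA, 8.40 on GW-Sham and 2.94 on GW-SA. Of these, both sham readings and neither overload reading exceeded background. Defb30 read 11.20, 5.02, 7.72 and 6.60, with Veh-Sham 3.49 above GW-Sham. Like Defb43, the distal epididymis and vas deferens list was above background in sham and at background by its median in overload. Its medians were 13.15 and 12.87 in sham and 3.19 and 5.33 in overload, and its part was not tested. The list was chosen with earlier results of these data known, so the likeness gives no independent support.

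Above background on both Veh-Sham and GW-SA were 5 members, against 41.6% of all genes. Besides Defb30 and Defb35 these were Defb1, Defb29 and Defb36. On neither of the other arrays did Defb1 and Defb29 exceed background, a pattern of 2 members and of 0.528% of all genes. Defb1, made constantly by kidney and airway epithelium, read 7.72 on Veh-Sham, 5.06 on Veh-SA, 4.80 on GW-Sham and 6.48 on GW-SA. Defb29 read 8.14, 4.64, 3.78 and 8.49, and so hardly differed between Veh-Sham and GW-SA. Defb36 read 9.02, 6.53, 5.60 and 7.55. The epithelial markers followed these genes in being above background for 6 of 7 genes on Veh-Sham and 7 of 7 on GW-SA, against 2 on Veh-SA, but they were above background for 5 on GW-Sham too. Their medians were 8.74, 11.27, 5.04 and 8.04 in that order, and their part was not tested.

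The other 13 members were at or below background on all arrays, with readings from 2.05 to 6.19, as were 46.5% of all genes. Defb14, an inducible skin peptide that binds Ccr6, read 5.05 on Veh-Sham, 3.90 on Veh-SA, 3.90 on GW-Sham and 3.85 on GW-SA. Defb3 and Defb4, induced in infected airways, read at most 3.25 and 3.33. Defb6, reported from skeletal muscle, read 2.57, 4.57, 3.79 and 4.74. Keratinocyte markers were above background for 0 of 6 genes on every array. These readings set only an upper bound and do not show that the genes were silent.

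**Figure D3:**
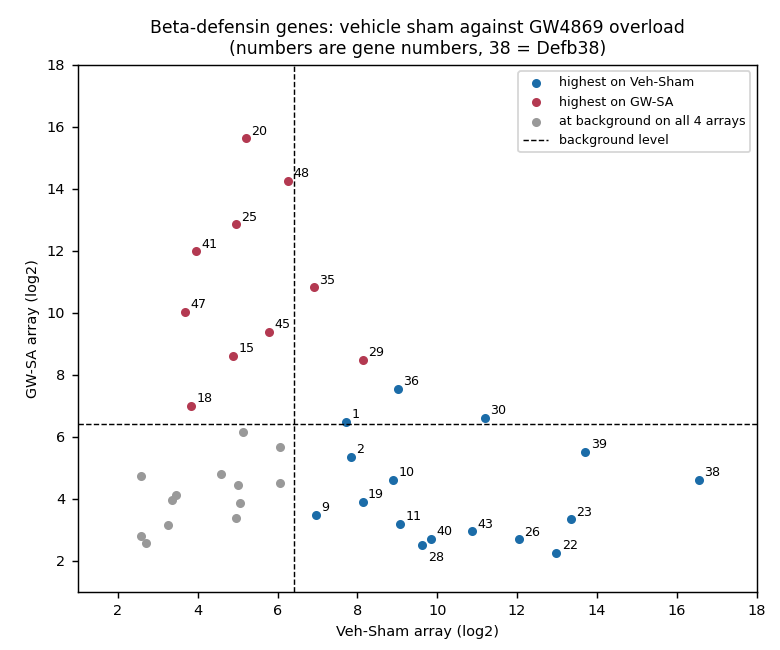
Log2 reading on Veh-Sham (x axis) against GW-SA (y axis) for the 39 members, coloured by the array with the highest reading, with the background level of 6.40 dashed. Genes lie along one axis or the other, and the upper right corner beyond background holds only Defb1, Defb29, Defb30, Defb35 and Defb36, all below 12 on both axes.

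Overload against sham under vehicle separated the family in 1 direction. Readings were at least 1.5-fold lower in Veh-SA for 16 of 39 members and higher for 0, where 9.30% of all genes were lower and 13.8% higher. Of these, 7 members were lower by at least 4 log2 units, against 1.23% of all genes: Defb22, Defb23, Defb26, Defb30, Defb38, Defb39 and Defb43. For Defb36 and Defb1 the differences were -2.49 and -1.33. The median difference of the family on values as deposited was -1.78, and that of all genes 0.21.

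The same contrast under GW4869 ran mostly the other way. Readings were at least 1.5-fold higher in GW-SA for 11 of 39 members, against 5.68% of all genes, and lower for 2, against 6.69%. The 2 lower genes were Defb43 at -2.00 and Defb30 at -1.11. Higher by at least 4 log2 units were Defb20 (9.23), Defb48 (7.31), Defb25 (6.47), Defb41 (5.58) and Defb35 (4.33), 5 members against 0.272% of all genes. The median difference on values as deposited was 0.59, and that of all genes -0.05. Defb30 and Defb43 were the members lower with overload under both injections, while 0.733% of all genes were. Defb29 and Defb36 were lower with overload under vehicle and higher under GW4869, and 1.16% of all genes were.

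GW4869 against vehicle in sham mice uses the Veh-Sham array again, as overload under vehicle does. Readings were at least 1.5-fold lower in GW-Sham for 16 members and higher for 0, against 8.43% and 13.1% of all genes. Lower by at least 4 log2 units were Defb22, Defb23, Defb26, Defb38 and Defb39, where 1.11% of all genes were. Defb43 and Defb30 differed by -2.49 and -3.49 here and by -4.49 and -4.81 for overload under vehicle, with GW-Sham above Veh-SA for both genes. Defb48 had 0.55, just short of 1.5-fold higher.

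GW4869 against vehicle in overloaded mice shares the GW-SA array with overload under GW4869. Readings were at least 1.5-fold higher in GW-SA for 11 members and lower for 0, against 8.17% and 8.40% of all genes. Defb20 (9.23), Defb48 (7.86), Defb25 (6.47), Defb41 (5.58) and Defb35 (4.42) were higher by at least 4 log2 units, against 0.374% of all genes. Defb15 was 1.95 higher and Defb36 1.02 higher.

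Every comparison of the design includes Veh-Sham or GW-SA, the arrays high in germ cell or epididymal epithelium markers. Without both, only GW-Sham and Veh-SA remain, which differ in injection and in surgery. Between them 2 members (5.13%) were at least 1.5-fold higher in GW-Sham, Defb30 and Defb43, and 0 lower, against 5.93% and 4.36% of all genes. The distal epididymis and vas deferens list had a median of 12.87 on GW-Sham and 3.19 on Veh-SA, so this pair of arrays also differs in tract transcripts. From Veh-Sham to GW-Sham, Defb43 went from 10.88 to 8.40 and Defb30 from 11.20 to 7.72, beside list medians of 13.15 and 12.87. Of the 6 genes of the list, 2 were at least 1.5-fold lower in GW-Sham than in Veh-Sham and 1 higher. The part of such tissue was not tested. The pair was compared after the values were seen.

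**Figure D4:**
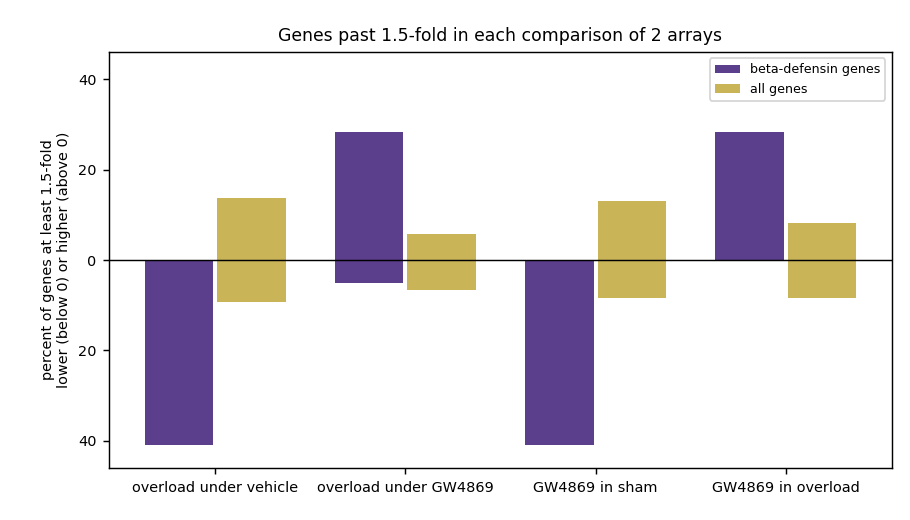
Percent of genes at least 1.5-fold higher (bars above 0) or lower (bars below 0) in each comparison of 2 arrays, for the 39 beta-defensin genes and for all 19505 genes. Family bars reach 16 of 39 genes lower in both comparisons with Veh-Sham and 11 of 39 higher in both with GW-SA.

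In the genome the family is grouped, and neighbours did not always share an array. The RefSeq gene table places the 39 members in 5 runs of Defb genes, split where neighbours lie more than 1 Mb apart, and its chromosome matched that in the probe set identifier for 39 of 39. Of 34 adjacent measured pairs, 15 included a member at background, 11 were highest on the same array and 8 on different arrays. The chromosome 2 run holds 6 of these 8. Its order is Defb23, Defb20, Defb22, Defb26, Defb28, Defb29, Defb21, Defb19, Defb45, Defb36 and Defb25, so the Defb20 signal on GW-SA (15.63) sits between genes read on Veh-Sham at 13.35 (Defb23) and 12.98 (Defb22). On chromosome 14, Defb48 and Defb47 were highest on GW-SA, and the next genes Defb43 and Defb30 on Veh-Sham.

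The first chromosome 8 run opens with Defb40, Defb38 and Defb39, and its other 9 measured members were at background. Between Defb34 and Defb14 in that run lie Spag11b and Spag11a, sperm-associated epididymal genes with defensin-like products. Spag11b read 3.79 on Veh-Sham, 3.07 on Veh-SA, 3.01 on GW-Sham and 17.17 on GW-SA, while the flanking Defb34 and Defb14 stayed at background. Spag11a read 6.87, 3.22, 3.81 and 7.08.

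The second chromosome 8 run holds the alpha-defensins of the gut, made by Paneth cells, between Defb33 and Defb1. All 22 measured alpha-defensin genes were at background on all 4 arrays, with none above 5.43, and some of them had identical readings on every array. In the same stretch the gene models Gm6040 and AY761185 read 7.85 and 7.40 on Veh-Sham and at most 5.0 and 3.50 on the other arrays. The stretch from Defb1 to Defb13 in this run is known from mice that lack it, whose males are sterile. There Defb1, Defb2, Defb10, Defb9 and Defb11 were highest on Veh-Sham, Defb15 and Defb35 on GW-SA, and Defb50 and Defb13 were at background.

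Of the 22 measured genes that flank the runs, 7 were above background on all 4 arrays, against 40% of all genes. Of the same 22 genes, 2 were above background on Veh-Sham alone and 0 on GW-SA alone, against 4.89% and 1.5% of all genes. Gm15319, a gene model between the chromosome 8 runs, was 1 of those on Veh-Sham alone, with 10.86 there, 5.40 on Veh-SA, 4.80 on GW-Sham and 5.73 on GW-SA. Ctsb, a lysosomal protease beside the chromosome 14 run, read 18.11 on Veh-Sham, 18.17 on Veh-SA, 18.41 on GW-Sham and 18.43 on GW-SA. H13, a signal peptide peptidase beside the chromosome 2 run, read 12.85, 12.66, 13.41 and 13.65. Tfap2b, a transcription factor beside the chromosome 1 run, read 7.42, 2.67, 5.17 and 4.89, the highest value being on Veh-Sham and not on GW-SA as for Defb18 and Defb41.

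Promoter runs were found for 28 of the 39 members, 29 runs in all because Defb21 has 2. AGAACA or its reverse complement was in 14 of 29 runs of 250 bases, against 16.1% of all 32851 RefSeq promoter runs of that length. It was in 7 of 12 runs of members highest on Veh-Sham, 4 of 7 of those highest on GW-SA and 3 of 10 of those at background. With the 50 bases after the start included, the count was 18 of 29, against 19.0%. CCAAT was in 13 runs, against 33.8%, with 8 of 12 on Veh-Sham, 1 of 7 on GW-SA and 4 of 10 of those at background. CAGGAA, the core letters of ETS factors that act in the first segment of the epididymis, was in 14, against 25.7%. TATAAA, the letters of the TATA box, was in 5, against 12.4%. It stood 35 and 30 bases before the start in Defb15 and Defb48, on the gene's strand.

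The runs are not independent, because paralogs share sequence. Of 378 pairs of members, 18 had an identity of at least 60% in a global alignment, and the median pair had 47.0%. The closest was Defb3 with Defb8 at 86.6%, both at background, and 15 of the 18 pairs joined members at background on chromosome 8. The other 3 joined Defb9, Defb10 and Defb11, at 64.9% to 67.0%, all highest on Veh-Sham. Defb38 and Defb39 had 58.0%. Related genes can also share probe sequence, and cross-hybridisation was not tested. The median GC content was 47.2% for members and 52.4% for all promoters, and 9 of 29 member runs had no CG pair, against 7.87% of all.

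Receptors linked to beta-defensins were read as a list, together with Ccl20, a ligand of Ccr6, and Myd88, a signalling adaptor. Ccr6 read 2.09 on Veh-Sham, 1.94 on Veh-SA, 1.93 on GW-Sham and 2.40 on GW-SA, and Mc1r, the pigment cell receptor bound by some defensins, at most 3.28. Of 10 measured genes of this list, 4 were at least 1.5-fold higher and 0 lower in overload under vehicle, where 13.8% and 9.30% of all genes were. Under GW4869 3 were higher and 0 lower, against 5.68% and 6.69%. Myd88, not itself a receptor, was among the higher genes in both contrasts, by 1.02 under vehicle and 1.46 under GW4869. Tlr4, the endotoxin receptor, read 10.06, 11.68, 11.47 and 11.48 and was higher with overload under vehicle but not under GW4869. Tlr2, a receptor for bacterial lipoproteins, read 7.91, 8.89, 10.26 and 11.73 and was higher under both. Macrophage markers, a list of 4 measured genes, had medians of 9.57, 10.08, 11.13 and 11.54 on the arrays in that order. Of these, Adgre1, a surface marker of macrophages, read 7.97, 8.47, 9.52 and 11.02. With overload 1 of the 4 was higher and 0 lower under vehicle, and 2 higher and 1 lower under GW4869. The part of macrophages in the receptor readings was not tested.

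Antimicrobial genes without a Defb symbol were counted too. Of 16 measured, 1 was higher and 1 lower in overload under vehicle, where 13.8% and 9.30% of all genes were. Under GW4869 5 were higher and 1 lower, against 5.68% and 6.69%. The 5 were Lcn2, S100a8, S100a9, Spag11a and Spag11b. Spag11a and Spag11b also stand in the epididymal epithelium list, and S100a8 and S100a9 in the neutrophil list, so these counts overlap. Lcn2, which withholds iron from bacteria, read 14.73, 13.16, 14.19 and 19.70. S100a8, a neutrophil protein, read 3.44, 5.14, 4.90 and 8.63, and Camp, the cathelicidin gene, was at background throughout with at most 2.61. Neutrophil markers were above background for 4 of 6 genes on GW-SA and 0 of 6 on each other array. Of all genes, 45.7% were on GW-SA, 47.5% on Veh-Sham, 44.4% on Veh-SA and 45.0% on GW-Sham. The 4 read 7.94 to 8.72 on GW-SA, below the negative control level of 9.27, while Elane and Mpo read 4.69 and 3.30. The part of neutrophils was not tested.

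Among 11 measured regulators of the epididymis, 8 were above background on GW-SA, 6 on Veh-Sham and 5 on each other array, where 45.7%, 47.5%, 44.4% (Veh-SA) and 45.0% (GW-Sham) of all genes were. Ros1, a receptor kinase needed for the first segment of the epididymis, read 3.80 on Veh-Sham, 3.35 on Veh-SA, 4.51 on GW-Sham and 9.09 on GW-SA. Like Defb20, Ros1 was above background on GW-SA alone, but its reading there lies below the negative control level of 9.27. Ptpn6 was also above background on GW-SA alone, at 7.96. Pax8, a transcription factor of the genital ducts, read 9.0, 4.16, 7.89 and 9.63. Not all regulators shared these patterns: Esr1 read 6.53, 8.01, 7.10 and 7.59, and Etv5 read 8.20, 7.39, 8.88 and 8.88. Lgr4 read 10.98, 10.99, 11.01 and 10.94, and Etv4 was at background throughout with at most 3.17. Between overload and sham, 2 of the 11 were higher and 2 lower under vehicle, against 13.8% and 9.30% of all genes, and 3 higher and 0 lower under GW4869, against 5.68% and 6.69%. The androgen receptor gene was not analysed here.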

How the data were processed

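Total RNA of epididymal fat was hybridised to 4 Clariom S Mouse arrays, 1 per group, with groups taken from the sample titles. The authors deposited log2 values for each probe set, and the submitters' processing notes name Partek and RMA. No version, background step or build is stated, and values reach 19.93, so a log2 unit is a doubling on that scale only. The platform annotation named 19505 genes, and the probe set with the highest mean was kept per gene. Members and lists were chosen with earlier results of these data known. Every member above background on an array is named, and genes outside the family come from fixed lists or are RefSeq neighbours. Differences were taken with readings under log2 6.40 raised to it, and counted at 1.5-fold, over all genes with no filter on low values. Counting was tested on simulated data. Alternatives were 2 other background levels, values as deposited, 2-fold and 16-fold thresholds, 2 centrings and the mean over probe sets. Depth does not apply to arrays, and their number limits the precision. Promoters came from RefSeq (GRCm38.p6), aligned with Biopython 1.88 in Python 3.11.15.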

Additional observations from a re-analysis of the deposited data

Results flagged for a closer look

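Defb29 and Defb36 had overload differences of opposite sign under the 2 injections. For Defb29 the log2 difference between overload and sham was -1.75 under vehicle and 2.10 under GW4869. For Defb36 it was -2.49 under vehicle and 1.15 under GW4869. Every reading of both genes lies below the negative control level of 9.27, and with that as the background level neither gene differs in either contrast. With 1 array per group the difference between the contrasts was not tested. They are 2 of 39 members, and 1.16% of all genes were lower under vehicle and higher under GW4869.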

How the results depend on the processing

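Of 16 summary values under up to 8 alternatives, 61 of 96 recomputed values stayed within 1.5 times or did not move. The mean over probe sets could not change any value, since each of the 39 members has 1 probe set. Counts of 0 could not rise at a higher threshold or background level either. The 61 therefore includes outcomes fixed in advance. No called member turned direction. Only the 2 centrings could have turned one, because another background level or threshold cannot reverse a difference. For overload (vehicle, then GW4869) and for GW4869 (sham, then overload), main counts were 16, 2, 16 and 0 lower and 0, 11, 0 and 11 higher. At the negative control level they were 7, 0, 7 and 0 lower and 0, 6, 0 and 6 higher. At 16-fold they were 7, 0, 5 and 0 lower and 0, 5, 0 and 5 higher. With values as deposited they were 25, 5, 22 and 2 lower and 4, 20, 5 and 22 higher, since differences between background readings then count. With the background level at the 40th percentile of gene means, 4.67, higher counts were 1 under vehicle overload and 3 for GW4869 in sham, and centring on all genes gave 1 for the latter. Members above background on Veh-Sham, Veh-SA, GW-Sham and GW-SA were 9, 0, 0 and 7 at the negative control level and 29, 9, 12 and 19 at 4.67. Centring on all genes, whose medians differ by up to 0.47, moved the family medians to 5.78, 4.02, 3.89 and 4.58, and centring on adipocyte genes to 6.33, 3.75, 3.58 and 4.62. No paired analysis was possible because each group has 1 array. Signal over background limits what can be seen: 13 members have only an upper bound.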
